A study of Bos taurus with 10 samples.

Results

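Glycan sulfotransferases and glycosyltransferases are the Golgi enzymes that build and decorate the sugar chains of glycoproteins, glycolipids and proteoglycans. Their genes were taken from the deposited table by symbol, as every gene whose name opens with one of the family prefixes (CHST, CHSY, CHPF, HS3ST, HS6ST, NDST, EXT, EXTL, XYLT, CSGAL, B3GAL, B3GNT, B3GAT, B4GAL, ST3GAL, ST6GAL, ST8SIA, GALNT, MGAT and FUT). The choice went by symbol, with earlier results of these data known. It gave 94 of the 12674 genes listed, of which 91 had enough counts to be tested. Heparan sulfate 2-O-sulfation is not analysed here.

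RNA was sequenced from intramuscular fat, the marbling fat between muscle fibres, and from subcutaneous fat of 5 adult female cattle (Angus cross heifers), giving 5 libraries of whole adipose tissue per depot. The animals carried no treatment or genetic change named in the labels. The question behind the series was why marbling is laid down later and more slowly than fat under the skin. Same-numbered libraries of both depots were taken as 1 animal.

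Sugar chains of this kind fall into a few large families. Heparan, chondroitin, dermatan and keratan sulfate are long sulfated chains on proteoglycans. The first 3 grow from a short linkage region on a serine of the core protein, and their sulfation pattern sets which growth factors, lipases and matrix proteins they bind. Mucin-type chains start with N-acetylgalactosamine on serine or threonine, while N-glycans are attached to asparagine and then trimmed, branched and capped. Sialic acid and fucose usually end a chain. In fat, heparan sulfate on cell surfaces and basement membranes is known for holding lipoprotein lipase and growth factors.

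Counts over the listed genes totalled 9392739 to 14836808 per library in intramuscular fat and 13776094 to 17685678 in subcutaneous fat. The 94 genes together took 0.327 to 0.354% of them in intramuscular and 0.289 to 0.424% in subcutaneous libraries. Both depots expressed the adipocyte genes ADIPOQ (301 to 1104 against 446 to 1162 CPM, counts scaled to library size) and PLIN1 (832 to 2599 against 1723 to 3568 CPM). The 13 adipocyte markers with values summed to 5914 to 20182 CPM in intramuscular and 22218 to 30366 CPM in subcutaneous libraries, with 0 higher and 2 lower of 12 tested by edgeR (0 and 7 at an unadjusted p under 0.05, 0 and 5 by DESeq2). Striated muscle markers went the other way. The 11 with values, some of them known from earlier results to be high here, summed to 1278, 499.7, 799, 276 and 360.2 CPM in intramuscular replicates 1 to 5 and to 47.4 to 80.3 CPM in subcutaneous libraries. Of these 11, 7 were higher and 0 lower, and 4 had no count in any subcutaneous library. Of 12 Schwann cell and nerve markers 7 were higher and 1 lower. Of 13 endothelial markers 0 were higher and 4 lower, of 11 macrophage markers 0 and 4, of 11 fibro-adipogenic progenitor markers 1 and 4, and of 7 mural cell markers 3 and 0. For comparison, 6.75% of all genes tested by edgeR were higher and 5.49% lower. In bulk tissue, fewer cells of a type and less RNA per cell cannot be told apart.

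Most of the 94 genes were expressed at moderate levels. Per kilobase of gene length their mean level over the 10 libraries ran between 0.262 and 138.5 RPKM (CPM per kilobase of gene length), with a median of 6.53 RPKM against 9.50 RPKM for all listed genes. In 37 genes it reached 10 RPKM and in 12 it stayed under 1 RPKM. The highest level was that of GALNT16, which encodes a polypeptide GalNAc-transferase, an enzyme that starts mucin-type chains. It had 119.8 ± 35.5 RPKM in intramuscular and 157 ± 68.8 RPKM in subcutaneous fat (mean ± SD, n = 5 each), and held 54.3 ± 8.62% and 59.2 ± 13.0% of the summed RPKM of the 12 GALNT genes listed. Next came the N-glycan branching genes MGAT1 (56.8 ± 1.41 and 73.7 ± 10.7 RPKM) and MGAT4B (47.5 ± 13.3 and 69.7 ± 14.3 RPKM), whose ranges overlapped each other within each depot. The sialyltransferase gene ST3GAL2, the linkage region gene B3GAT3 and B3GALNT1, a row the deposited table types as a pseudogene, followed by mean over all 10 libraries, with 39.9 ± 6.66, 40.3 ± 6.94 and 36.2 ± 10.0 RPKM in intramuscular fat. Their subcutaneous levels were 57.1 ± 8.21, 53.0 ± 20.7 and 56.4 ± 16.4 RPKM. The ranges of these 3 genes overlapped each other within each depot.

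**Figure D1:**
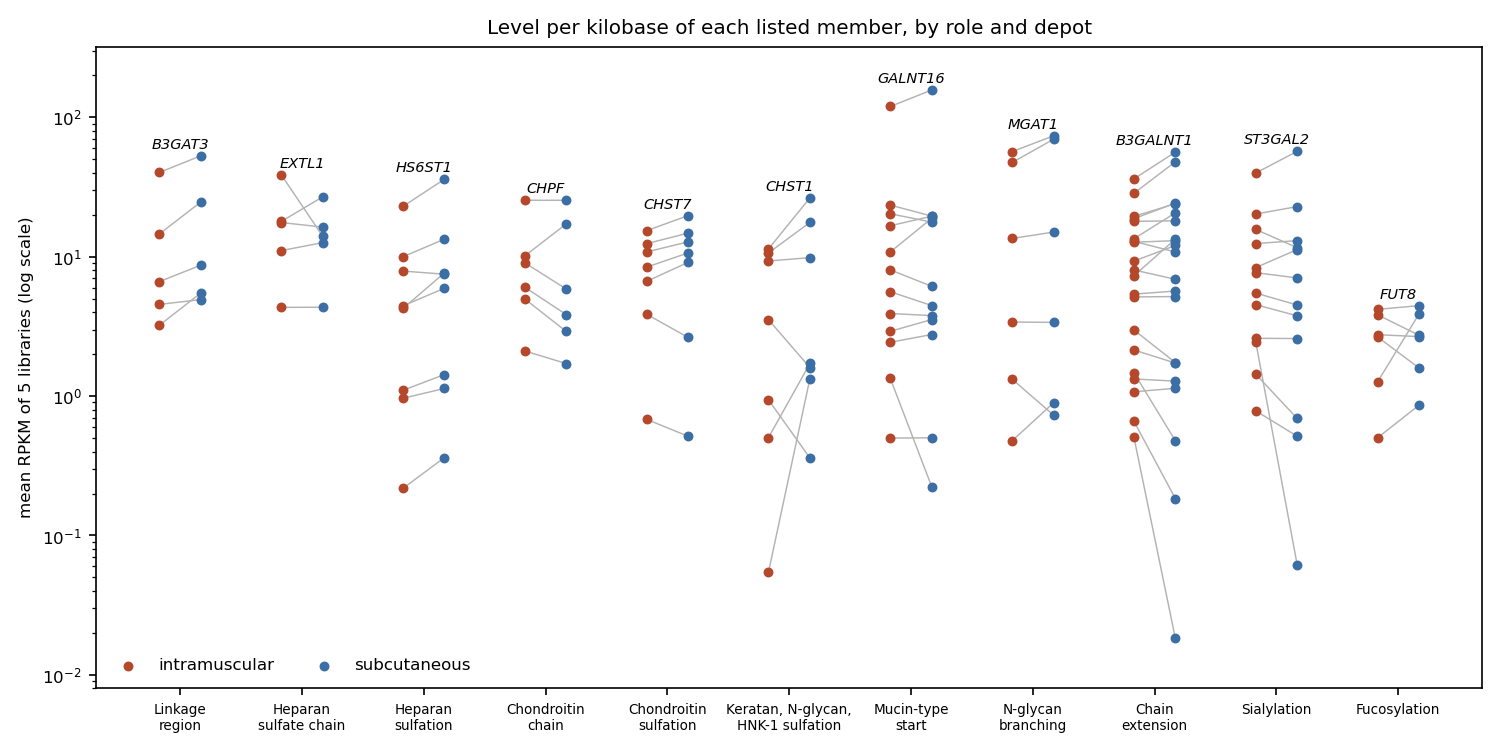
Mean level of each of the 94 listed genes in RPKM on a log axis, by role, with intramuscular fat at left and subcutaneous fat at right of each column, lines joining the same gene and the gene of highest mean level named. GALNT16 lies above all others in both depots, and the line of B4GALNT3 runs down to the lowest subcutaneous point of all.

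Of the 91 genes tested, 8 (8.79%) differed between depots at an adjusted p of 0.05 (edgeR quasi-likelihood test, Benjamini-Hochberg over all genes tested), against 12.2% of all 12521 genes tested. The sialyltransferase ST8SIA2 and the galactosyltransferase B4GALT6 were higher in intramuscular fat, which is 2.20% of the members against 6.75% of all genes. The sulfotransferases CHST1 and CHST9, the chain polymerases EXT2 and CHPF2, the GalNAc-transferase GALNT18 and the GlcNAc-transferase B3GNT3 were lower, which is 6.59% against 5.49%. These shares are near or under those of all genes. At an unadjusted p under 0.05, 11 members were higher and 18 lower (12.1% and 19.8%), against 14.5% and 16.2% of all genes. The median log2 fold change (intramuscular over subcutaneous) was -0.08 over the 91 genes and -0.04 over all genes tested. With libraries scaled by their total count alone the median of all genes moved by 0.17 on the log2 scale to 0.13, and that of the members to 0.08, so the sign of both medians turned with the scaling. That scaling called 4 members higher and 3 lower, against 9.18% and 2.64% of all genes, and 77.7% of all calls were then higher, against 55.1% in the main test. DESeq2 called 6 members higher and 13 lower, or 20.9% against 19.8% of all genes. With limma voom 4 were higher and 7 lower (7.37% and 4.74% of all genes), and with RLE scaling, the size factors of DESeq2, 3 were higher and 6 lower (7.04% and 4.98%).

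With the animal as a block, 14 members were called, 4 higher and 10 lower (15.0%, 8.09% and 6.96% of all genes were called in either direction, upward and downward). All 8 of the members above were among them. Without the block, the remaining genes missed the threshold. They were GALNT17 and CSGALNACT1 on the higher side, and B4GALNT1, CHST2, HS6ST1 and MGAT4B on the lower side. Without intramuscular replicates 1 and 3, the pair with the most striated muscle counts, CHST1 alone was called by edgeR. That is 0 members higher and 1 lower of 92 tested, or 1.09% against 2.96% of all 12612 genes tested there (2.43% higher and 0.531% lower). At an unadjusted p under 0.05 there were 5 higher and 9 lower (5.43% and 9.78%), against 9.53% and 9.73% of all genes. The other members called in the main test kept their direction there, with adjusted p between 0.0507 and 0.203. In the authors' deposited table, from DESeq2, 7 of the 94 passed as higher and 13 as lower at the same threshold, against 10.8% and 9.24% of all listed genes.

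**Figure D2:**
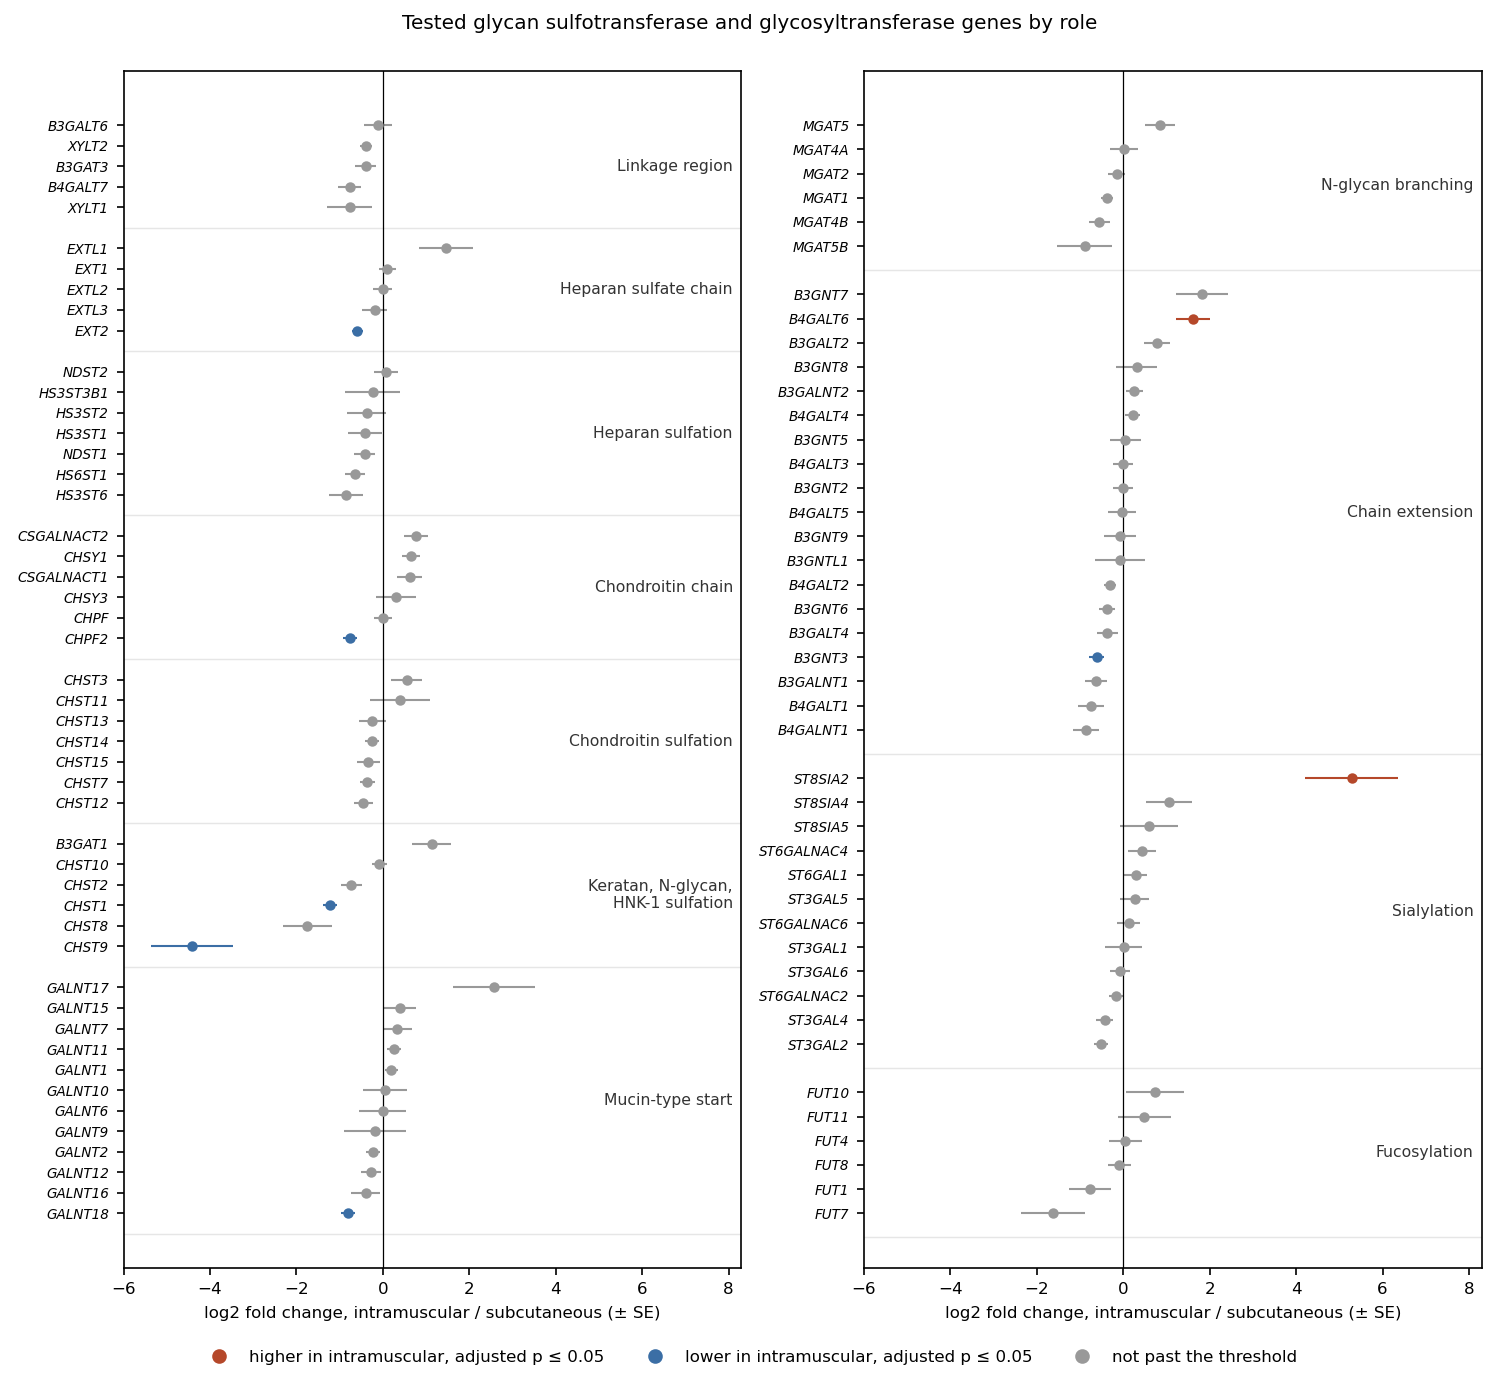
Log2 fold change (intramuscular over subcutaneous fat) with its standard error for the 91 genes tested, grouped by role, with genes past the threshold in colour. Most points lie near 0, ST8SIA2 (5.28) and CHST9 (-4.41) lie farthest out, and all 5 linkage region genes lie left of 0.

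The 7 genes listed for keratan sulfate, N-glycan and HNK-1 sulfation included CHST1, the member with the smallest adjusted p. They also included B3GAT1, which is not a sulfotransferase gene. CHST1 puts sulfate on the galactose of keratan sulfate (ENSBTAG00000003721, chromosome 15, 75702165 to 75705849 in the deposited table, whose genome build is not given in the sources used here). It had 23.5, 25.7, 20.9, 32.5 and 24.9 CPM in intramuscular replicates 1 to 5, against 62.5, 66.4, 48.7, 59.0 and 59.5 CPM in subcutaneous replicates 1 to 5. The highest intramuscular library lay well below the lowest subcutaneous one. Its log2 fold change was -1.22 ± 0.16 (± SE, edgeR adjusted p = 0.000544), the adjusted p stayed between 0.000541 and 0.00227 in the 10 fits that left out 1 library, and it was 0.00874 without intramuscular replicates 1 and 3. Within its class CHST1 held 31.7 ± 5.00% of the summed RPKM in intramuscular and 45.1 ± 3.68% in subcutaneous fat.

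CHST9 adds sulfate to the terminal GalNAc of N-glycans (ENSBTAG00000014082, chromosome 24, 29688812 to 29966256). It had 7 counts in intramuscular replicate 4 and none in the other 4 intramuscular libraries, and 24, 27, 33, 47 and 48 counts in subcutaneous replicates 1 to 5. The subcutaneous level was itself low, with means of 0.0949 ± 0.212 CPM in intramuscular and 2.32 ± 0.684 CPM in subcutaneous fat (SD, n = 5 each). Its log2 fold change was -4.41 ± 0.94 (edgeR adjusted p = 0.0112). CHST9 passed the filter on low counts through its subcutaneous libraries alone. Without intramuscular replicate 4 the fit gave -8.07, but no intramuscular count was left there, so that size is not a measured ratio. The related gene CHST8 pointed the same way, with 0.562 to 1.89 CPM in intramuscular and 1.36 to 8.07 CPM in subcutaneous libraries, but its ranges overlapped (log2 fold change -1.75 ± 0.57, edgeR adjusted p = 0.0599, 0.0432 without subcutaneous replicate 5).

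CHST2, which sulfates GlcNAc, had 38.7, 43.8, 25.4, 62.6 and 28.7 CPM in intramuscular replicates 1 to 5 and 88.9, 70.8, 52.3, 65.6 and 52.3 CPM in subcutaneous replicates. It was lower in 5 of 5 pairs although the ranges overlapped (-0.73 ± 0.25, edgeR adjusted p = 0.0690, 0.0250 with the animal as a block and 0.0224 without intramuscular replicate 4). The sulfotransferase of the HNK-1 epitope of nerve, CHST10, had 31.1 ± 6.71 and 32.8 ± 3.11 CPM (adjusted p = 0.790 by edgeR). B3GAT1, which makes the glucuronic acid of that epitope, had 28.8, 7.05, 8.99, 6.10 and 5.95 CPM in intramuscular replicates 1 to 5, against 3.23 to 7.14 CPM in subcutaneous libraries (adjusted p = 0.111 by edgeR). CHST10 and B3GAT1 were singled out after their values were seen. CHST6, a keratan sulfate sulfotransferase best known from cornea, had too few counts to test, with 3 to 35 counts in intramuscular and 0 to 20 in subcutaneous libraries. In all, 0 genes of the class were higher and 2 lower of 6 tested (1 and 4 at an unadjusted p under 0.05, 0 and 4 by DESeq2), with a median log2 fold change of -0.97, and -0.81 under total count scaling. These counts and medians include B3GAT1, the 1 tested gene of the class with a positive log2 fold change (1.14 ± 0.45).

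**Figure D3:**
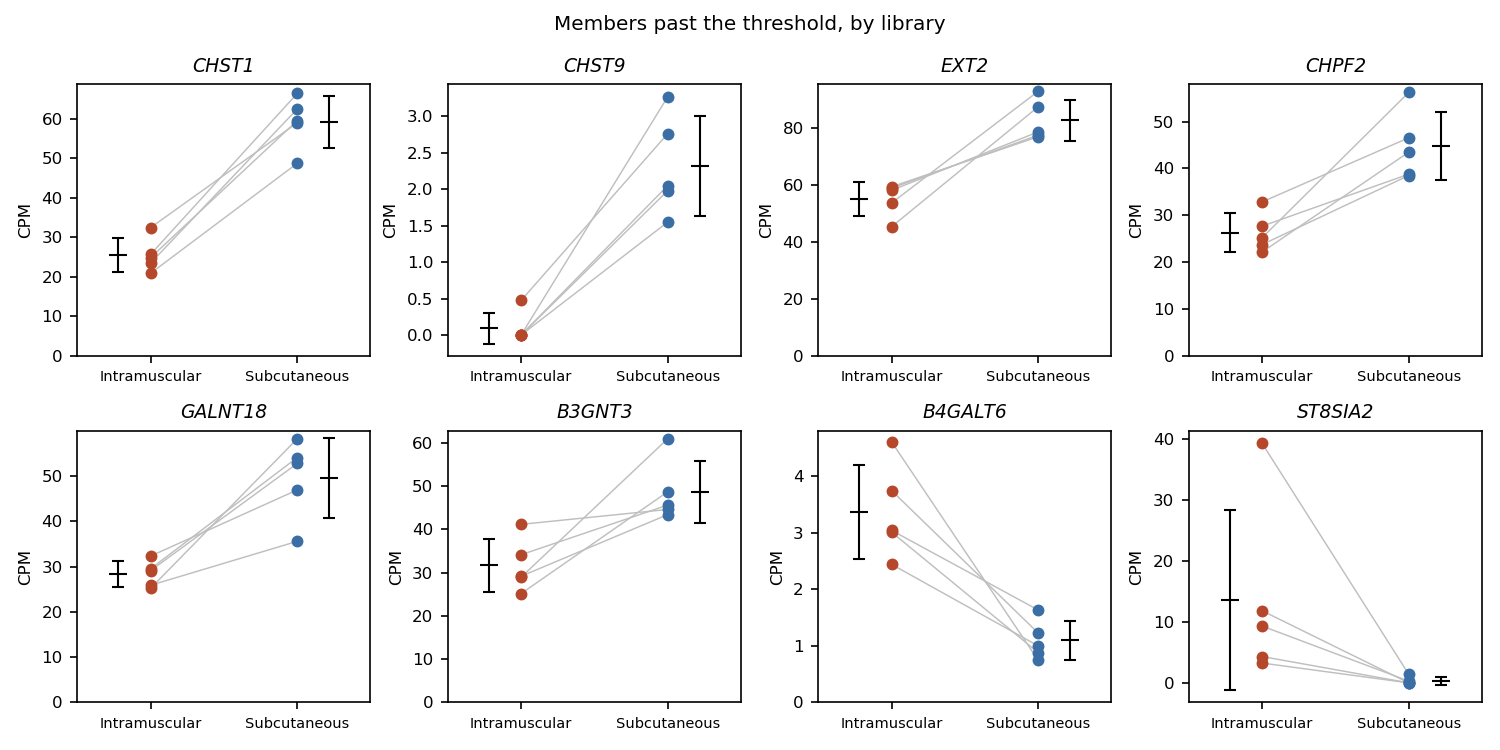
CPM of the 8 members past the threshold in each library, intramuscular at left and subcutaneous at right, with grey lines joining libraries of the same number and bars for mean ± SD (n = 5). In all 8 genes the depots do not overlap, and in ST8SIA2 intramuscular replicate 1 (39.3 CPM) stands far above the other 4 intramuscular libraries.

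Among the 5 genes listed for building the heparan sulfate chain, EXT2 was lower and its partner EXT1 was not called. The proteins of both genes form the complex that extends the chain. EXT2 (ENSBTAG00000019644, chromosome 15, 74203659 to 74352950) had 45.3, 58.1, 53.6, 59.3 and 58.9 CPM in intramuscular replicates 1 to 5, against 87.4, 78.6, 92.8, 76.9 and 77.4 CPM in subcutaneous replicates. All 5 pairs were lower, and the log2 fold change was -0.59 ± 0.13 (edgeR adjusted p = 0.0159), with adjusted p of 0.0596 under total count scaling and 0.118 without intramuscular replicates 1 and 3. EXT1 had 39.4 ± 4.93 and 36.6 ± 9.59 CPM (0.11 ± 0.19, edgeR adjusted p = 0.732). EXT2 and CHST1 lie 1349 kb apart on chromosome 15 by the coordinates of the table.

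EXTL1, an exostosin-like gene whose product adds GlcNAc to the heparan chain, spread more between libraries than the other 4 genes of its class, in both depots. It had 98.3, 73.9, 139.9, 187 and 330.4 CPM in intramuscular replicates 1 to 5 and 186, 28.4, 24.0, 16.3 and 45.3 CPM in subcutaneous replicates. The subcutaneous libraries other than replicate 1 lay below every intramuscular one, and subcutaneous replicate 1 lay above 3 of them. The log2 fold change was 1.47 ± 0.62 (edgeR adjusted p = 0.132), and 2.54 without subcutaneous replicate 1 (edgeR adjusted p = 0.00389). Its share of the class's summed RPKM was 40.4 ± 12.7% in intramuscular and 16.0 ± 12.8% in subcutaneous fat. EXTL3, which adds the first GlcNAc of the chain, had 37.4 ± 6.17 and 42.7 ± 18.7 CPM (edgeR adjusted p = 0.697).

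None of the 7 tested heparan sulfate sulfotransferase genes passed the threshold by edgeR (0 higher and 1 lower at an unadjusted p under 0.05, 0 and 0 by DESeq2). Of the 7, 6 had a negative log2 fold change, against 59.3% of the 91 members and 52.9% of all genes tested. The median was -0.42 (-0.27 under total count scaling). HS3ST3B1, 1 of these 6 (-0.24 ± 0.63), changed sign with limma voom. HS6ST1, the 6-O-sulfotransferase and the highest of its class, had 66.3, 82.1, 97.6, 117 and 88.9 CPM in intramuscular replicates and 107, 129, 95.9, 218 and 159 CPM in subcutaneous replicates. The depots overlapped and 4 of 5 pairs were lower (-0.65 ± 0.23, edgeR adjusted p = 0.0817, 0.0395 with the animal as a block). NDST1, which swaps acetyl for sulfate on GlcNAc and opens the way for later sulfation, had 73.9 ± 19.2 and 98.9 ± 32.0 CPM (edgeR adjusted p = 0.254). The 3-O-sulfotransferase gene HS3ST6 had 5.34 ± 1.45 and 9.63 ± 5.34 CPM (edgeR adjusted p = 0.163). NDST3 had 6 to 10 counts in intramuscular and 2 to 27 in subcutaneous libraries and was not tested.

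All 5 linkage region genes had a negative log2 fold change, as did 59.3% of the 91 members and 52.9% of all genes tested. None passed the threshold by edgeR (0 higher and 2 lower at an unadjusted p under 0.05, and the same counts by DESeq2). The median was -0.40, and -0.22 under total count scaling. B3GALT6, the smallest in size at -0.12, changed sign without intramuscular replicate 5. XYLT2, a xylosyltransferase that starts the chain, had 26.0, 27.7, 23.3, 26.2 and 21.6 CPM in intramuscular replicates and 33.0, 36.4, 32.7, 31.8 and 30.1 CPM in subcutaneous replicates. The ranges did not overlap (-0.39 ± 0.14, edgeR adjusted p = 0.0878). XYLT2 shares bases with MRPL27 on the opposite strand, and the strand setting of the counting is not given in the sources used here. MRPL27 averaged 47.2 CPM in intramuscular and 74.3 CPM in subcutaneous fat. The part of MRPL27 reads in the XYLT2 counts was not tested. B4GALT7, which adds the first galactose, had 20.5 to 24.7 CPM in intramuscular and 21.8 to 65.4 CPM in subcutaneous libraries (-0.76 ± 0.26, edgeR adjusted p = 0.0734). Without subcutaneous replicate 1 or 2 its adjusted p was 0.0413 and 0.0406. B3GAT3, which closes the linkage region with glucuronic acid, had 66.2 ± 11.4 and 87.1 ± 34.1 CPM (edgeR adjusted p = 0.279).

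Of the 6 genes listed for building the chondroitin chain 0 were higher and 1 was lower by edgeR (3 and 1 at an unadjusted p under 0.05, 2 and 1 by DESeq2). The lower gene, CHPF2 (ENSBTAG00000014371, chromosome 4, 113811847 to 113816294), a chondroitin polymerising factor, had 32.9, 27.7, 23.8, 22.2 and 25.2 CPM in intramuscular replicates 1 to 5, against 46.5, 38.8, 38.5, 43.5 and 56.2 CPM in subcutaneous replicates. Its depots did not overlap and the log2 fold change was -0.76 ± 0.17 (edgeR adjusted p = 0.0130, 0.0505 under total count scaling). CHSY1, a chondroitin synthase, had 23.1, 23.0, 24.8, 26.4 and 22.7 CPM in intramuscular replicates and 19.0, 16.9, 9.75, 18.0 and 12.8 CPM in subcutaneous replicates. Here every intramuscular library lay above every subcutaneous one, but the adjusted p of 0.0523 by edgeR missed the threshold (0.65 ± 0.20), and it was 0.0475 with RLE scaling and 0.0362 without subcutaneous replicate 1.

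CSGALNACT2, whose enzyme starts the chondroitin chain, had 28.5 ± 13.2 and 16.7 ± 3.36 CPM (0.77 ± 0.28, edgeR adjusted p = 0.0880), with the highest value of 50.4 CPM in intramuscular replicate 1. Its relative CSGALNACT1, singled out after its values were seen, had 37.8 ± 9.24 and 24.5 ± 10.4 CPM and was higher in 5 of 5 pairs (edgeR adjusted p = 0.158, 0.0289 with the animal as a block). CHPF, the most abundant gene of the class per kilobase, was at 108 ± 18.6 and 108 ± 33.9 CPM (edgeR adjusted p = 0.995). The class median was 0.46, and 0.61 under total count scaling. By share of the class's summed RPKM, CHPF2 held 17.5 ± 2.36% in intramuscular and 30.5 ± 3.39% in subcutaneous fat, while CHPF held 44.1 ± 7.66% and 44.0 ± 7.21%.

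The 7 chondroitin and dermatan sulfotransferase genes held no call by edgeR (0 and 0 at an unadjusted p under 0.05, 0 and 0 by DESeq2), with a median log2 fold change of -0.25 (-0.09 under total count scaling). CHST7, a 6-O-sulfotransferase, had 28.4 ± 3.32 and 36.4 ± 7.95 CPM and was lower in 5 of 5 pairs (-0.36 ± 0.18, edgeR adjusted p = 0.194). The 4-O-sulfotransferase gene CHST12 had 16.3 ± 4.01 and 22.2 ± 4.27 CPM and was also lower in 5 of 5 pairs (-0.45 ± 0.21, edgeR adjusted p = 0.173). CHST3, another 6-O-sulfotransferase gene, had 10.9 ± 2.88 and 7.44 ± 3.50 CPM (0.55 ± 0.36, edgeR adjusted p = 0.314). Of all 91 members, 9 (9.89%) were higher and 17 (18.7%) lower in 5 of 5 pairs, against 15.8% and 14.9% of all genes tested (26 in either direction, against 30.7%).

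Among the 12 mucin-type GALNT genes, GALNT18 was lower and none was higher by edgeR (1 higher and 1 lower at an unadjusted p under 0.05, and the same by DESeq2). GALNT18 (ENSBTAG00000002914, chromosome 15, 41064073 to 41420001) had 29.1, 29.5, 25.2, 32.3 and 25.9 CPM in intramuscular replicates 1 to 5, against 52.8, 54.1, 58.2, 46.9 and 35.6 CPM in subcutaneous replicates. The intramuscular libraries were close together and all below the subcutaneous ones. Its log2 fold change was -0.80 ± 0.16 (edgeR adjusted p = 0.00887, 0.0711 without intramuscular replicates 1 and 3). GALNT17 had 11.7, 1.76, 2.48, 2.71 and 5.54 CPM in intramuscular replicates and 1.87, 0.147, 0, 0.117 and 1.91 CPM in subcutaneous replicates. It was higher in 5 of 5 pairs (2.57 ± 0.94, edgeR adjusted p = 0.0883, 0.0186 with the animal as a block). GALNT11 had 42.8 ± 6.58 and 35.7 ± 4.07 CPM (edgeR adjusted p = 0.271), and GALNT16, the most abundant, had 222 to 553 and 251 to 818 CPM (edgeR adjusted p = 0.453).

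Branching of N-glycans involves 6 listed genes, of which none passed the threshold by edgeR (1 higher and 2 lower at an unadjusted p under 0.05, 0 and 1 by DESeq2). MGAT1, whose enzyme adds the first branch, had 154, 157, 149, 155 and 159 CPM in intramuscular replicates, against 249, 199.6, 199, 181 and 175 CPM in subcutaneous replicates. The intramuscular libraries were nearly alike and all below the subcutaneous ones, yet the difference was small (-0.38 ± 0.14, edgeR adjusted p = 0.0898). MGAT4B, which adds a later branch, had 138, 133, 59.5, 133 and 125 CPM in intramuscular and 174, 209, 114, 177 and 188 CPM in subcutaneous replicates. It was lower in 5 of 5 pairs (-0.55 ± 0.23, edgeR adjusted p = 0.130, 0.0282 with the animal as a block), and replicate 3 was the lowest library in both depots. MGAT4B overlaps SQSTM1 on the opposite strand, and SQSTM1 averaged 470.2 CPM in intramuscular and 764 CPM in subcutaneous fat. The part of SQSTM1 reads in the MGAT4B counts was not tested. MGAT5, whose branch often carries long lactosamine chains, had 5.32 ± 1.01 and 2.94 ± 1.34 CPM (0.85 ± 0.35, edgeR adjusted p = 0.123, 0.0465 without subcutaneous replicate 4).

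The 20 genes that extend chains with galactose, GlcNAc or GalNAc held 1 higher and 1 lower call among 19 tested. B4GALT6 (ENSBTAG00000044063, chromosome 24, 25459771 to 25526155), a lactosylceramide synthase that makes the base of most glycolipids, had 3.74, 3.01, 4.60, 2.44 and 3.04 CPM in intramuscular replicates 1 to 5, against 1.23, 0.880, 0.745, 0.999 and 1.63 CPM in subcutaneous replicates. Every intramuscular library was above every subcutaneous one. Its log2 fold change was 1.61 ± 0.40 (edgeR adjusted p = 0.0214), with an adjusted p of 0.0718 without intramuscular replicate 3. B4GALT5, the other lactosylceramide synthase gene, was added after its values were seen and had 50.0 ± 16.9 and 51.3 ± 27.9 CPM (edgeR adjusted p = 0.952).

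B3GNT3 (ENSBTAG00000046750, chromosome 7, 5344443 to 5364373), whose enzyme extends mucin-type chains, had 28.9, 29.1, 25.1, 41.1 and 34.1 CPM in intramuscular replicates, against 60.9, 43.4, 48.7, 44.6 and 45.6 CPM in subcutaneous replicates. The depots did not overlap, though intramuscular replicate 4 came close to subcutaneous replicate 2. Its log2 fold change was -0.62 ± 0.17 (edgeR adjusted p = 0.0347). This call was the least secure of the 8. The adjusted p was 0.0739, 0.0694, 0.0832 and 0.0552 without intramuscular replicates 1, 2, 3 and 5, and 0.0584 and 0.0644 without subcutaneous replicates 1 and 3.

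B4GALNT1, which makes the gangliosides GM2 and GD2, had 14.5, 10.1, 14.1, 21.7 and 29.6 CPM in intramuscular replicates and 21.0, 30.9, 44.7, 25.8 and 42.7 CPM in subcutaneous replicates. All 5 pairs were lower (-0.87 ± 0.30, edgeR adjusted p = 0.0728), and the adjusted p was 0.0416 with the animal as a block, 0.0311 without intramuscular replicate 5 and 0.0437 without subcutaneous replicate 1. B3GNT7, an extender of keratan sulfate, had 0.658 to 2.34 CPM in intramuscular and 0.176 to 0.807 CPM in subcutaneous libraries (1.82 ± 0.59, edgeR adjusted p = 0.0609, 0.0448 under total count scaling). B3GALNT1, highest of the class per kilobase and the only member that the deposited table types as a pseudogene (the other 93 are typed as protein coding), had 36.0 ± 9.97 and 56.0 ± 16.3 CPM (edgeR adjusted p = 0.115, 0.0436 without subcutaneous replicate 5).

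B4GALNT3, which builds LacdiNAc ends, was left out of the test by the filter on low counts. It had 35, 8, 21, 33 and 37 counts in intramuscular replicates 1 to 5, and 5 counts in subcutaneous replicate 2 with none in the other 4 subcutaneous libraries. That is 2.03 ± 1.02 CPM in intramuscular and 0.0733 ± 0.164 CPM in subcutaneous fat (SD, n = 5 each), with no overlap. The authors' deposited table, from DESeq2, did test it and gives a log2 fold change of 4.90 with an adjusted p of 0.000132.

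Of the 12 sialyltransferase genes ST8SIA2 was higher and none lower by edgeR (1 higher and 1 lower at an unadjusted p under 0.05, and the same by DESeq2). ST8SIA2 and ST8SIA4 make polysialic acid, a long chain known mainly on the neural cell adhesion molecule NCAM1 of nerve and developing muscle. ST8SIA2 (ENSBTAG00000048501, chromosome 21, 14523634 to 14595969) had 39.3, 9.32, 11.8, 3.25 and 4.32 CPM in intramuscular replicates 1 to 5, against 1.42, 0.293, 0, 0 and 0 CPM in subcutaneous replicates. Its level in the intramuscular libraries followed the order of the summed striated muscle markers (1278, 499.7, 799, 276 and 360.2 CPM). In subcutaneous replicates 1 to 5 it did not, and there those markers summed to 52.1, 71.4, 80.3, 79.2 and 47.4 CPM. The 12 Schwann cell and nerve markers summed to 561, 564, 640, 871 and 935 CPM in intramuscular replicates 1 to 5. In subcutaneous libraries they summed to 698 to 1513 CPM, and their 1 lower gene, S100B, is part of both sums. The part of muscle and nerve transcripts in the difference was not tested.

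The depots did not overlap in ST8SIA2, and the log2 fold change was 5.28 ± 1.08 (edgeR adjusted p = 0.00882). The adjusted p was 0.000788 with the animal as a block and stayed between 0.00181 and 0.0268 in the 10 fits that left out 1 library. Without intramuscular replicates 1 and 3 the log2 fold change was 4.03 and the adjusted p 0.0966. NCAM1 itself had 55.2, 18.0, 49.4, 15.9 and 18.7 CPM in intramuscular replicates and 5.94, 1.32, 1.37, 4.99 and 0.953 CPM in subcutaneous replicates (3.42 ± 0.58, edgeR adjusted p = 0.00291). ST8SIA4 had 3.34 ± 0.769 and 1.61 ± 0.987 CPM (1.05 ± 0.54, edgeR adjusted p = 0.203).

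The most abundant sialyltransferase gene per kilobase, ST3GAL2, caps galactose with sialic acid. It had 141, 152, 165, 187 and 213 CPM in intramuscular replicates, against 277, 291, 220.4, 215 and 226 CPM in subcutaneous replicates. The ranges touched without overlapping (-0.52 ± 0.16, edgeR adjusted p = 0.0553, 0.0463 without intramuscular replicate 5). It held 33.5 ± 8.06% of the summed sialyltransferase RPKM in intramuscular and 42.1 ± 1.77% in subcutaneous fat. ST3GAL4 had 23.7 ± 2.14 and 31.9 ± 8.88 CPM (edgeR adjusted p = 0.166). The class median was 0.19, and 0.38 under total count scaling.

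**Figure D4:**
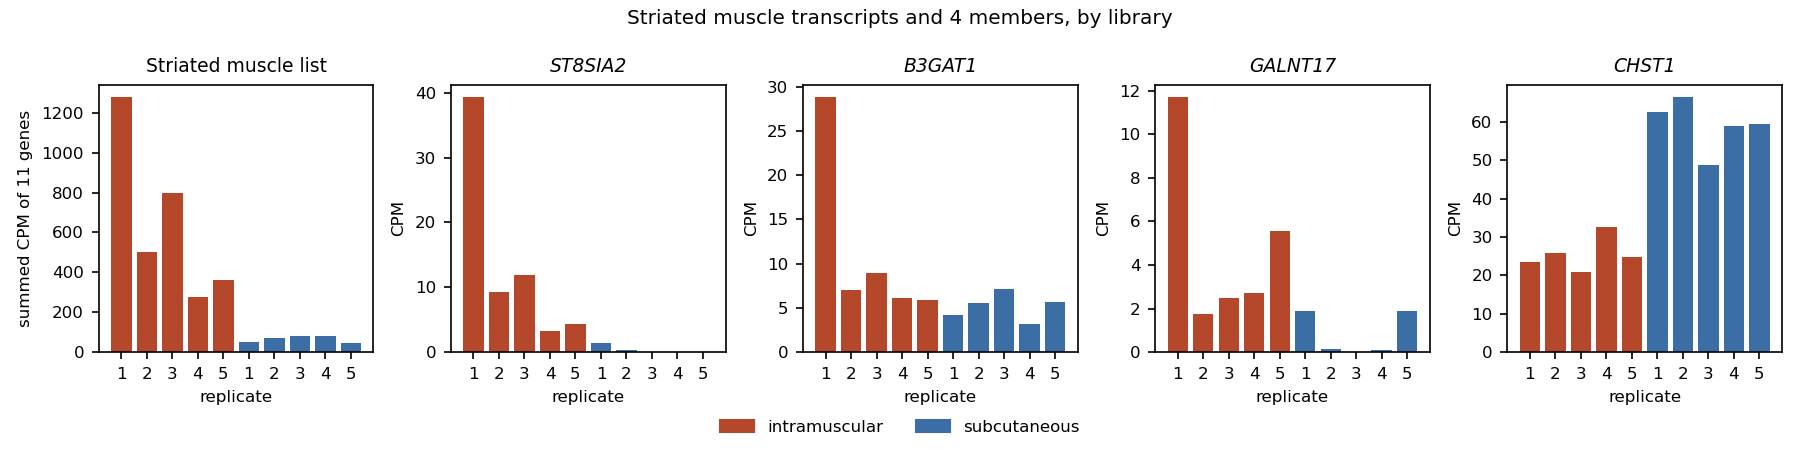
Summed CPM of the 11 striated muscle markers and CPM of 4 members in each library, intramuscular bars at left and subcutaneous bars at right of each panel. Intramuscular replicate 1 has the tallest bar for the muscle list (1278 CPM), ST8SIA2, B3GAT1 and GALNT17. That library also has the lowest adipocyte marker sum (5914 CPM, not drawn). Among the other intramuscular libraries GALNT17 runs in another order than the muscle list. It has 5.54 CPM in replicate 5 and 2.48 CPM in replicate 3, against 360.2 and 799 CPM for the list. The CHST1 bars of the 5 intramuscular libraries are all shorter than the 5 subcutaneous ones.

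Fucosyltransferases were not called in either direction by edgeR (0 higher and 1 lower of 6 at an unadjusted p under 0.05, 0 and 0 by DESeq2). FUT8, which adds the core fucose of N-glycans, had 11.9 ± 2.29 and 12.7 ± 4.33 CPM (edgeR adjusted p = 0.857). FUT7, which makes the leukocyte ligand sialyl Lewis x, had 2.81, 2.35, 0, 0.746 and 0.608 CPM in intramuscular and 3.42, 2.86, 2.11, 5.05 and 6.53 CPM in subcutaneous replicates. It was lower in 5 of 5 pairs with a wide error (-1.63 ± 0.75, edgeR adjusted p = 0.161). FUT1, which makes the H antigen, had 1.57 ± 0.686 and 2.69 ± 1.24 CPM (edgeR adjusted p = 0.296).

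The libraries of one depot all lay above those of the other in 12 of the 91 members, 3 with intramuscular and 9 with subcutaneous fat on top (3.30% and 9.89%), against 7.85% and 5.04% of all genes tested and 12.9% in either direction. Beside the 8 called genes these were CHSY1, MGAT1, ST3GAL2 and XYLT2. The members spread more between subcutaneous than between intramuscular libraries. The median SD of log2 CPM was 0.37 in intramuscular and 0.49 in subcutaneous fat, and 60 of 91 (65.9%) spread more in subcutaneous fat, close to the 69.2% of all genes tested. The median standard error of a member's log2 fold change was 0.29, against 0.25 for all genes. Of 11 members with a log2 fold change of at least 1 in size, 4 (36.4%) were called, against 855 of 1627 such genes (52.6%) among all tested.

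Genes that act with these enzymes were read from 5 lists, chosen with earlier results of these data known. Over all genes tested, edgeR called 6.75% higher and 5.49% lower, and DESeq2 10.6% and 9.24%. At an unadjusted p under 0.05 by edgeR the shares were 14.5% and 16.2%. In the list of sulfate donor and nucleotide sugar supply, 0 genes were higher and 1 lower of 29 tested by edgeR (2 and 5 at an unadjusted p under 0.05, 0 and 3 by DESeq2), with a median log2 fold change of -0.12 (0.05 under total count scaling). The lower gene was TSTA3, which completes GDP-fucose, and it had 40.3 ± 4.31 and 62.2 ± 15.7 CPM (edgeR adjusted p = 0.0431). It missed the threshold in 8 of the 10 fits that left out 1 library, with an adjusted p of up to 0.110.

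PAPSS1 and PAPSS2, which make the sulfate donor of every sulfotransferase here, had 41.6 ± 6.39 and 45.4 ± 7.11 CPM and 20.8 ± 12.3 and 18.7 ± 10.5 CPM (edgeR adjusted p = 0.633 and 0.878), and were named after their values were seen. None of 9 chain editing genes passed by edgeR (3 higher and 1 lower at an unadjusted p under 0.05, 2 and 0 by DESeq2, and 2 and 0 with the animal as a block).

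The proteoglycan core list had 5 genes higher and 0 lower of 26 tested by edgeR, against 6.75% and 5.49% of all genes tested. At an unadjusted p under 0.05 it had 7 and 3 (14.5% and 16.2% of all genes). By DESeq2 it also had 7 and 3 (10.6% and 9.24% of all genes). Its median was 0.36, and 0.49 under total count scaling. Fibromodulin (FMOD), a small proteoglycan that carries keratan sulfate, had 396 ± 118 CPM in intramuscular and 103 ± 35.0 CPM in subcutaneous fat (1.95 ± 0.27, edgeR adjusted p = 0.000925), the opposite direction to CHST1. CSPG4, a chondroitin sulfate proteoglycan that is also a pericyte marker, had 174 ± 30.9 and 75.6 ± 18.3 CPM (edgeR adjusted p = 0.00192). The extracellular proteoglycan SPOCK2 had 33.1 ± 19.4 and 9.36 ± 3.20 CPM (edgeR adjusted p = 0.00709). These 3 genes kept their call in 10 of 10 fits that left out 1 library and without intramuscular replicates 1 and 3. Biglycan (BGN, 651 ± 134 and 399.7 ± 94.2 CPM, edgeR adjusted p = 0.0485) kept it in 1 of 10, and the hyaluronan receptor CD44 (143 ± 37.2 and 83.5 ± 17.5 CPM, edgeR adjusted p = 0.0326) in 5 of 10.

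In the breakdown list 2 genes were higher and 5 lower of 23 tested by edgeR, against 6.75% and 5.49% of all genes tested. The median was -0.35 (-0.17 under total count scaling). That scaling called 2 higher and 3 lower, against 9.18% and 2.64% of all genes. The 5 genes lower in the main test encode lysosomal enzymes. IDUA, the iduronidase of heparan and dermatan sulfate, had 94.3 ± 19.5 and 208 ± 28.1 CPM, and its ranges did not overlap (-1.14 ± 0.17, edgeR adjusted p = 0.00151). The heparan sulfamidase SGSH had 20.8 ± 3.39 and 35.7 ± 2.63 CPM and the glucuronidase GUSB 37.1 ± 5.01 and 61.7 ± 10.7 CPM (edgeR adjusted p = 0.00882 and 0.0128). IDUA, SGSH and GUSB kept the call in 10 of 10 fits that left out 1 library, whereas HEXA and GLB1 (edgeR adjusted p = 0.0332 and 0.0365) kept it in 3 and 4. Without intramuscular replicates 1 and 3, IDUA was at 0.0188, SGSH at 0.0788 and GUSB at 0.121. The macrophage markers, from cells rich in lysosomes, were 0 higher and 4 lower of 11 in the same comparison, and their part in it was not tested.

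The hyaluronan-degrading genes CEMIP2 and CEMIP were the higher genes of the list. CEMIP2 had 39.4 ± 6.48 and 19.6 ± 3.52 CPM (1.00 ± 0.18, edgeR adjusted p = 0.00471). CEMIP had 2.24 ± 0.800 and 0.176 ± 0.262 CPM (edgeR adjusted p = 0.0226, and 0.0521 without intramuscular replicate 5). HAS2, a hyaluronan synthase, had 6.29 ± 2.58 and 13.5 ± 4.10 CPM (-1.11 ± 0.31, edgeR adjusted p = 0.0357), and missed the threshold in 7 of 10 fits that left out 1 library, with an adjusted p of up to 0.0908.

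**Figure D5:**
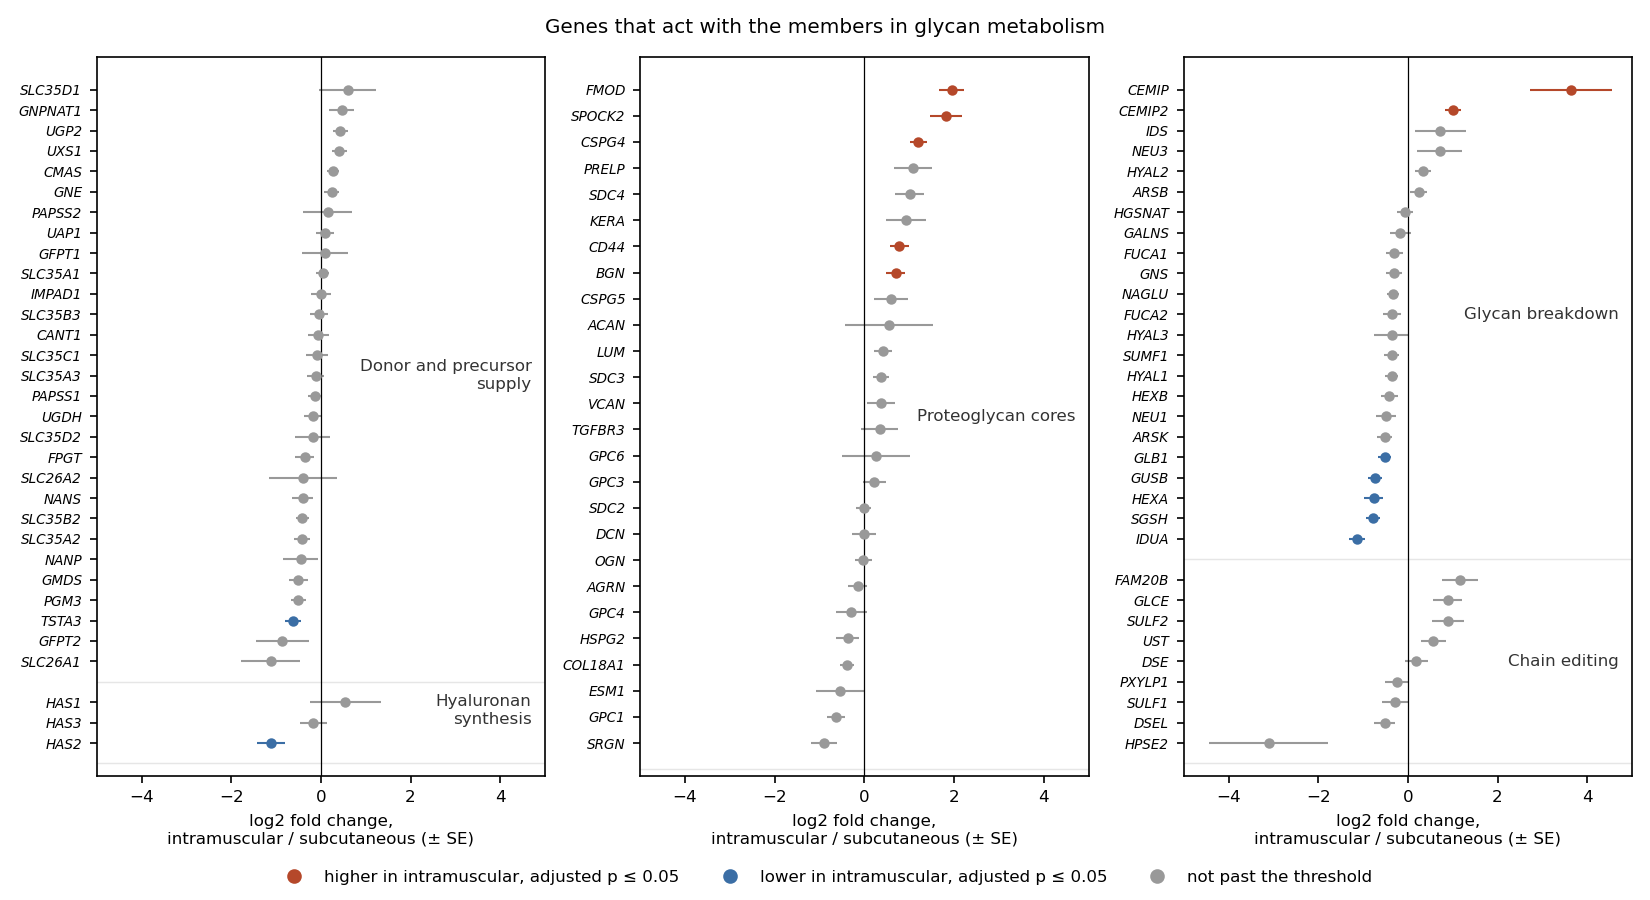
Log2 fold change (intramuscular over subcutaneous fat) with its standard error for the tested genes of 5 lists that supply, carry, edit or degrade the chains, with genes past the threshold in colour. The 5 coloured proteoglycan cores lie right of 0, and the 5 coloured lysosomal enzymes from GLB1 (-0.52) to IDUA (-1.14) lie left of it.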

How the data were processed

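Each library was placed in its depot by its title. The authors used Trimmomatic 0.39 and STAR 2.7.11a before counting with featureCounts 2.0.2, and DESeq2 1.42.0 for testing, as the submitters' processing notes list them. Genome build and strand setting: not given in the sources used here. The authors deposited whole-number raw counts per gene and library, which were used as they stand. They also deposited an average per depot and a base mean signal (not used), a log2 fold change with its standard error (the error not used), a test score (not used), and a p-value and adjusted p-value. The remaining columns are annotation.

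Depots were compared in R 4.3.3 by the quasi-likelihood test of edgeR 4.0.16 (TMM scaling, filterByExpr, no block, two-sided) on all genes, with Benjamini-Hochberg adjustment over the 12521 genes kept. The filter removed 153. CPM and RPKM used edgeR's scaled library sizes and the table's gene length. For 18 genes whose symbol was missing, repeated or opened with a digit the Ensembl identifier stood in. Alternatives were RLE and total count scaling, no filter, DESeq2 1.42.0, limma 3.58.1 voom, the animal as a block, and libraries left out. The fit was tested on simulated counts.

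Pairs follow the design text, which says that the same heifers gave both depots. Taking each gene's departure from its depot mean, libraries of 1 number had correlations of 0.101, 0.181, 0.176, 0.164 and 0.236, and each library correlated best with its own number. Members and lists were chosen with earlier results of these data known, and 1 gene of the supply list is not reported here. Named members were each one past the threshold, the highest per kilobase in each of 11 role classes and up to 2 others of smallest p. B4GALNT3, CHST6 and NDST3 were too low to test. P-values weigh the depot difference against the spread between these libraries. Those of the main test treat the libraries as independent although 5 animals gave both depots. Counts carry counting error only as far as reads are independent molecules. Reads of 9 members that overlap a gene on the opposite strand, and of near-identical copies, cannot be told apart.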

Additional observations from a re-analysis of the deposited data

Results flagged for a closer look

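In 6 of the 86 sets of 5 libraries checked, 1 library stood apart from the other 4 by Dixon's criterion, where chance alone gives about 1 in 20. EXTL1 had 186 CPM in subcutaneous replicate 1, against 45.3 CPM in the next library. ST8SIA2 had 39.3 CPM in intramuscular replicate 1, against 11.8 CPM in the next, and 1.42 CPM in subcutaneous replicate 1, against 0.293 CPM. MGAT4B was low in intramuscular replicate 3 at 59.5 CPM, against 125 CPM in the next. CHST9 was counted in intramuscular replicate 4 alone of its depot (0.474 CPM, 7 counts), and B4GALNT3 in subcutaneous replicate 2 alone of its depot (0.366 CPM, 5 counts). Where the other 4 libraries have no count, the criterion flags any library that has one.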

How the results depend on the processing

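The number of members called depended on the model and the libraries. The main test called 2 higher and 6 lower. DESeq2 gave 6 and 13 (1325 and 1157 of all genes), total count scaling 4 and 3 (330 of all genes lower), limma voom 4 higher, and the replicate block, which pairs the depots by animal, 4 higher and 10 lower. Without intramuscular replicates 1 and 3 the counts were 0 and 1 (306 and 67 of all genes). Leaving out 1 library at a time gave 1 to 7 members higher and 5 to 8 lower, and 494 to 1008 and 263 to 887 of all genes. Leaving out intramuscular replicate 3 gave 494 and 263 of all genes and 1 member higher, and leaving out subcutaneous replicate 1 gave the 7. Leaving out subcutaneous replicate 4 gave 4 members higher. Genes lower in intramuscular fat numbered 369, 373, 445 and 361 without intramuscular replicates 1, 2 and 5 and subcutaneous replicate 3. RLE scaling and the fit with no filter stayed within 1.5 times of each count. Of the values of the named members that were tested, over all these settings, 621 kept direction and side of the threshold, 17 lost a call, 33 gained one and 9 changed sign. The last were CHPF, at -0.11 to 0.19 with 1 library left out, and FUT8, at 0.065 under total count scaling and -0.27 to 0.044 with 1 library left out, both near 0 in the main test. Over all 91 members, 27 changed sign in at least 1 setting, 13 of them under total count scaling, and none of the 27 had a log2 fold change over 0.59 in size in the main test. The cause was not tested. Genes under 1 CPM rest on few counts.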
